A study of Homo sapiens with 2 samples.

Results

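The 8 genes described here, SRRM2, SON, SRRM1, ACIN1, PNISR, LUC7L3, BCLAF1 and THRAP3, encode proteins rich in arginine and serine that are found in nuclear speckles. Their SRSF1 crosslink sites were taken from 1 deposited list in hg19 positions: a site belonged to a gene when its midpoint and strand lay in that gene's interval. The rule found 38 of the 6754 listed sites (0.563%), 34 of them truncation sites and 4 mutation sites. The intervals were chr16:2802300-2821500 (plus strand) for SRRM2, chr21:34915100-34949900 (plus) for SON, chr1:24969500-24999800 (plus) for SRRM1 and chr14:23527700-23564900 (minus) for ACIN1. The others were chr6:99845900-99873300 (minus) for PNISR, chr17:48796900-48830000 (plus) for LUC7L3, chr6:136578000-136611000 (minus) for BCLAF1 and chr1:36690000-36771000 (plus) for THRAP3.

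The data came from 2 HITS-CLIP libraries, replicates 1 and 2, of H1299 cells, a human lung carcinoma line; no other genotype or treatment and no control library is among the samples. Ultraviolet light fixed SRSF1 to the RNA it touched, and the RNA fragments (tags) that came down with the protein were sequenced. Following the naming of the CTK toolkit, a truncation site is a position where more tags end than expected, taken as reverse transcriptase stopping at the crosslink. A mutation site is one where tags carry a mutation, taken as a base misread there. The list joins both libraries and has no column for either, so each value below is 1 value of the joined list, with no replicate spread and no test between samples, and the tag total of each library is unknown here.

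Nuclear speckles are bodies in the nucleus that hold splicing factors and lie close to active genes. Many of their proteins carry runs of arginine and serine, the RS domains, which kinases phosphorylate and through which SR proteins such as SRSF1 bind one another. SRSF1 itself binds purine-rich RNA, mainly in exons, through its RNA recognition motifs, and promotes the use of nearby splice sites. The sites below show where the RNAs of these speckle genes were crosslinked to that factor, and say nothing of contacts between the proteins.

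Because SRSF1 favours purine-rich RNA, the letters of the members' transcripts were read for 3 purine motifs, GAAGAA, GGA and GGAGA, on the transcript strand with overlapping matches counted. The longest protein-coding transcript of each gene in GENCODE 29 was used, and 19659 such transcripts, 1 per coding gene, served as the comparison. GGA lies within GGAGA, so those counts overlap. Matches were counted over the whole transcript, untranslated parts included; in LUC7L3 only 1296 of 7040 nt are coding. For the 4 members with the most sites, the 60-nt coding stretch with the most GAAGAA matches is given here, 5′ to 3′, with GAAGAA in capitals. It shows the motif at its densest in the coding part, in tandem in SRRM2 and as single copies 48 nt apart in LUC7L3. It does not show how the motif usually stands in these messages. These stretches were not placed against the crosslink sites, since no hg19 sequence was used.
SRRM2, coding positions 522 to 581: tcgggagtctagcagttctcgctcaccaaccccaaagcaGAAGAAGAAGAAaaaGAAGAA
ACIN1, coding positions 796 to 855: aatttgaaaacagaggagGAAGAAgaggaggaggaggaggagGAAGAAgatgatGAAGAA
PNISR, coding positions 826 to 885: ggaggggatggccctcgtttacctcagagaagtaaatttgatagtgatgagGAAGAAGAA
LUC7L3, coding positions 376 to 435: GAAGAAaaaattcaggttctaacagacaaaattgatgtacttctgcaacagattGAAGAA

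GAAGAA density was above the median of all coding transcripts (0.66 matches per kb) in 8 of 8 members. It was above the upper quartile (1.18 per kb) in 7 of 8. SRRM1 had 3.49 matches per kb, above 98.1% of coding transcripts, and ACIN1 had 3.44, above 98.0%. LUC7L3 had 2.56 per kb (above 95.1%), BCLAF1 1.93 (90.2%), PNISR 1.73 (87.7%), SON 1.70 (87.1%) and SRRM2 1.39 (80.8%). THRAP3 was lowest with 1.13 per kb, above 73.1%. GGA did not stand above its median in the same way. Its density was above the median of 20.4 matches per kb in 2 of 8 members, ACIN1 with 31.4 and THRAP3 with 23.2. In the other 6 it lay below the median, between 15.8 and 19.2, and only 1 of 8 was above the upper quartile (24.2 per kb). GGAGA density was above its median of 1.88 per kb in 5 of 8 and above its upper quartile (2.66 per kb) in 2 of 8. Purines made up more than the median 50.5% of bases in 7 of 8 members, with SRRM2 the exception at 49.0%. Of all coding transcripts, 78.5% held at least 1 GAAGAA and 95.5% at least 1 GGAGA. A match is a description of the letters, not a binding site.

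**Figure D1:**
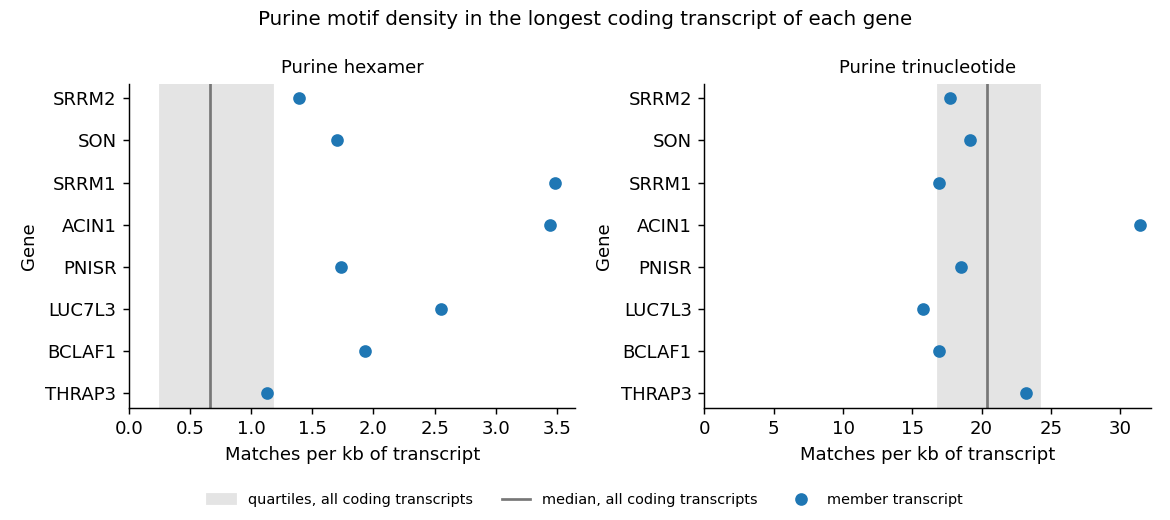
Matches of GAAGAA (left, purine hexamer) and GGA (right, purine trinucleotide) per kb of the longest coding transcript, 1 point per gene, with the grey band and line for the quartiles and median of 19659 coding transcripts. All 8 points lie right of the median on the left and 2 do on the right.

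Site density differed widely among the members when taken per length of the interval. SRRM2 had the highest, 8 sites or 4.17 per 10 kb (exact Poisson 95% interval 1.80 to 8.21, counting error only). PNISR followed with 7 sites (2.55 per 10 kb, 1.03 to 5.26), then LUC7L3 with 6 (1.81, 0.665 to 3.95), ACIN1 with 6 (1.61, 0.592 to 3.51) and SON with 5 (1.44, 0.467 to 3.35). SRRM1 had 2 sites (0.660, 0.0799 to 2.38), THRAP3 had 3 (0.370, 0.0764 to 1.08) and BCLAF1 had 1 (0.303, 0.00767 to 1.69). Each gene's Poisson interval overlapped that of its neighbour in this order, and the order was not tested. The SRRM2 interval lay above those of THRAP3 and BCLAF1, genes set side by side after their values were seen. THRAP3 also had the longest gene interval, 81.0 kb. The Poisson intervals treat sites as independent counts, although sites of 1 gene share their RNA. The order rests on low sites: with only sites whose tags were above the median of their own kind, SRRM2 had 0.521 per 10 kb, PNISR 1.82 and ACIN1 1.34. Over all 296 kb the density was 1.28 sites per 10 kb (0.908 to 1.76). Taken per kb of the longest coding transcript, which leaves out the length of introns, the order was another: PNISR had 1.35 sites per kb, ACIN1 1.22, SRRM2 0.855, LUC7L3 0.852, THRAP3 0.677, SON 0.567, SRRM1 0.499 and BCLAF1 0.138. SRRM2 was thus first per length of interval and behind PNISR and ACIN1 per length of transcript, while BCLAF1 was lowest on both scales. Sites were not placed in exons or introns, so the transcript scale counts sites that may be intronic. RNA levels were not measured here, and the densities are not binding strengths.

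**Figure D2:**
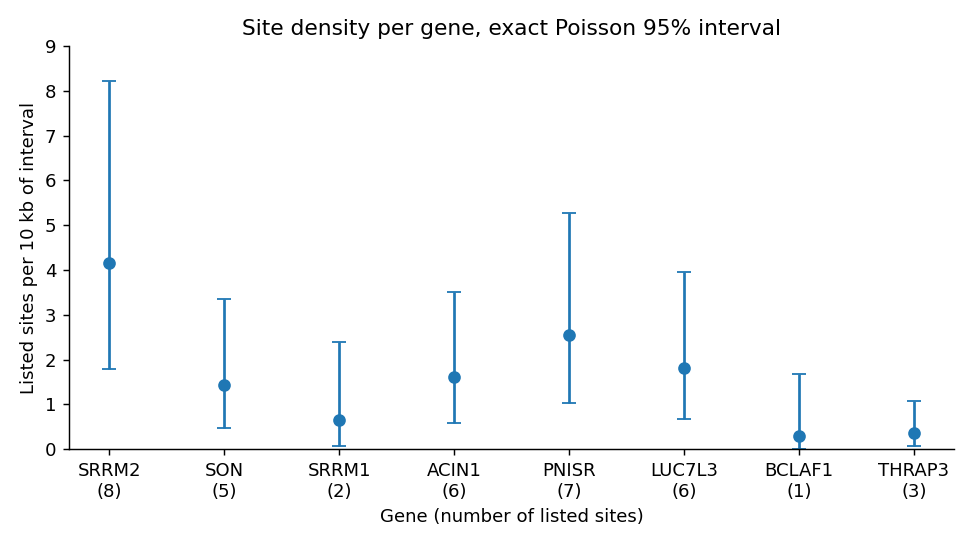
Listed sites per 10 kb of interval for each of the 8 genes, with exact Poisson 95% intervals and the number of sites under each name. SRRM2 stands at 4.17 and BCLAF1 and THRAP3 under 0.4, with wide intervals throughout.

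Listed sites were rare on the other strand of the intervals and around them. The genes were proposed with these sites known, so this contrast was in part set by that choice. Whether the stretches around the intervals are transcribed was not determined, so their counts are not a background for binding. The opposite strand of the same 8 intervals held 0 listed sites, and the exact Poisson 95% interval of a count of 0 is 0 to 3.69. The stretches of equal length just upstream held 3 sites (exact Poisson 95% interval 0.619 to 8.77). All of them were in the long stretch upstream of THRAP3, at least 45481 nt from its interval. Those just downstream held 0 (0 to 3.69), against 38 inside (26.9 to 52.2). In no gene did the nearest listed site outside, on the same strand, lie closer than 45481 nt. The intervals sat on the chromosome and strand that GENCODE 29 gives for 8 of 8 genes. They were shorter than the GENCODE gene by 11251 nt for SRRM1, 3569 nt for LUC7L3 and 1009 nt for SRRM2, but the nearest outside sites were 72264 nt away for SRRM1, 507944 nt for LUC7L3 and 296934 nt for SRRM2.

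SRRM2, a very large speckle protein of the spliceosome that serves as a scaffold of the speckle, carried many sites of low height. Its 7 truncation sites had 5, 7, 5, 4, 4, 6 and 5 truncated tags from 5′ to 3′. None reached 10 tags, and the expected number per position of the tag cluster was low too, 0.07 to 0.23. The highest, with 7 tags against 0.14 expected, lay at chr16:2808998-2809018; in the list, 2263 of 4731 truncation sites (47.8%) had as many. The sites formed 2 groups of neighbours and 1 single site: 3 within 1100 nt at chr16:2808998-2810097, and 4 within 661 nt at chr16:2818666-2819326, the latter including the gene's mutation site (2 of 6 tags mutated, 33.3%, exact binomial 95% interval 4.33 to 77.7%). Between the groups stood a stretch of 8589 nt (44.7% of the interval) without a listed site. The longest exon of the SRRM2 transcript in GENCODE 29 is 6701 nt, 71.6% of the transcript, and whether it lies in that stretch was not determined, because the annotation used is of another build.

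SON, an RNA-binding speckle scaffold that promotes splicing of weak introns, had its sites at both ends of the interval. Near the 5′ side lay 3 truncation sites with 8, 5 and 5 tags in 1102 nt (chr21:34921875-34922976), and the first of these, at chr21:34921875-34921895 against 0.17 expected, was the highest. Near the 3′ side a truncation site with 7 tags (chr21:34945633-34945653, 0.35 expected) and a mutation site (chr21:34945650-34945670) stood 17 nt apart, the mutation site 3′. That mutation site was covered by 25 tags, of which 4 were mutated (16.0%, 4.54 to 36.1%), and 186 of 2023 listed mutation sites (9.19%) were covered as deeply. The 22677 nt between the 2 groups, 65.2% of the interval, held none. SRRM2 and SON thus shared a layout of a 5′ group, a long stretch without sites and a 3′ group, over 8 and 5 sites. Such a stretch was not particular to SRRM2 and SON: SRRM1, with 1 site toward each end, had one of 70.5% of its interval. The longest exon was 67.1% of the SON transcript (5916 nt), but this did not set the pair apart: it was 81.2% in LUC7L3, 69.0% in PNISR and 58.6% in BCLAF1, whose sites all lay toward the 3′ edge.

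SRRM1, a splicing coactivator partnered with SRRM2, had 1 site toward each end of its interval. It had 4 truncated tags at chr1:24976502-24976522 (0.09 expected) and 9 at chr1:24997876-24997896 (0.28 expected), 21374 nt apart, and no mutation site. The second was the higher by 5 tags and lay at 93.7% of the interval's length from its 5′ edge.

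ACIN1, or acinus, a subunit of complexes that sit with the exon junction complex on spliced RNA, held the most truncated tags of the 8 genes, 64 over 6 sites. From 5′ to 3′ these sites had 20, 7, 14, 5, 9 and 9 tags. The first, at chr14:23549902-23549922, had 20 against 0.50 expected; 103 of 4731 listed truncation sites (2.18%) had as many. The third, with 14 tags at chr14:23532766-23532786, had 0.90 expected per position and so a ratio of 15.6. That was the highest expected number among the members' clusters with a listed truncation site; the depth of other clusters is not given. The last 2 shared a cluster and lay 57 nt apart at chr14:23528610-23528687, at 97.4% and 97.5% of the interval's length. ACIN1 sites were otherwise spread out, with 4 of 6 alone in their locus (sites at most 1000 nt apart on a strand were joined into a locus), and its transcript was the richest of the 8 in GGA.

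**Figure D3:**
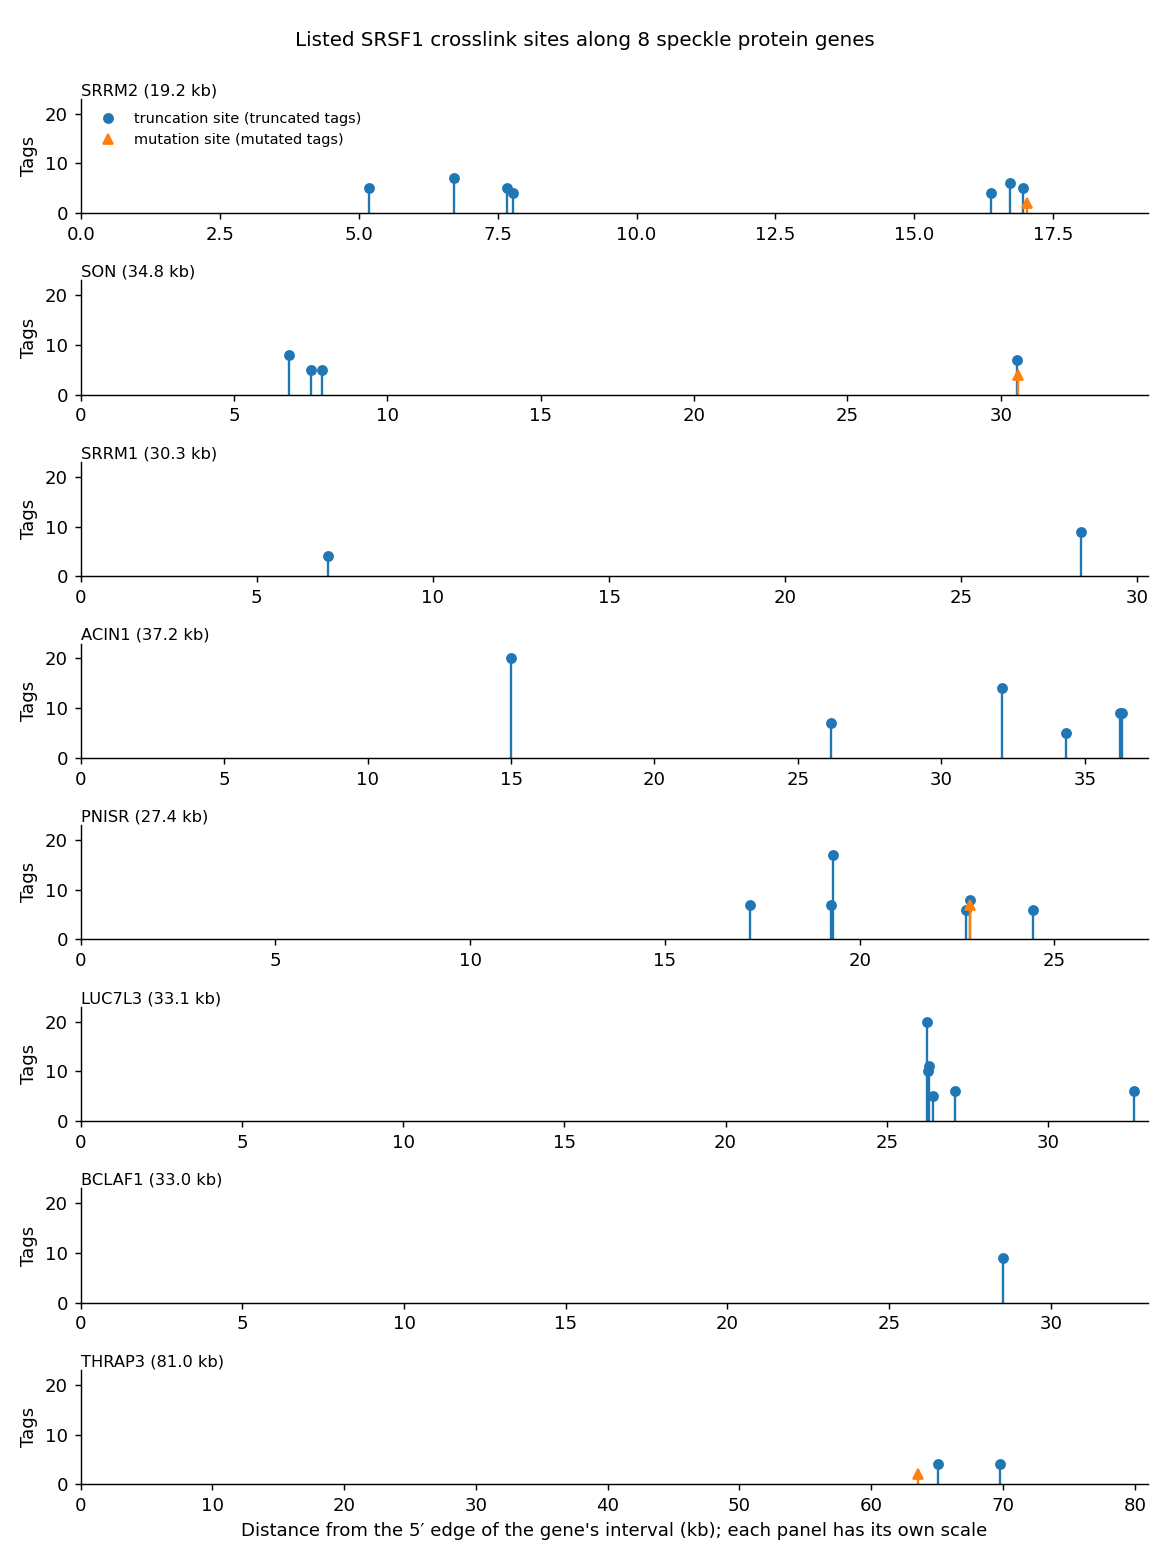
Truncation sites (circles, truncated tags) and mutation sites (triangles, mutated tags) of the 8 genes against the distance in kb from the 5′ edge of each interval, each panel on its own horizontal scale. Sites of PNISR, LUC7L3, BCLAF1 and THRAP3 all lie in the part nearer the 3′ edge. Those of SRRM2 and SON fall into a 5′ and a 3′ group, and SRRM1 has 1 site toward each end.

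PNISR, an RS-rich speckle protein that binds the splicing factor pinin, had 7 sites in 7292 nt near the 3′ edge of its interval. Its truncation sites had 7, 7, 17, 6, 8 and 6 tags from 5′ to 3′. The site with 17 tags (chr6:99853972-99853992, 0.37 expected, ratio 45.9) stood at the authors' lowest listed P, 1e-100, and lay 60 nt from its 5′ neighbour. The largest locus held 3 sites in 122 nt at chr6:99850454-99850575. In it, truncation sites with 6 and 8 tags shared a cluster, and 12 nt 3′ of the second lay a mutation site with 7 of 26 tags mutated (26.9%, 11.6 to 47.8%). This was the deepest mutation site of the 8 genes; 172 of 2023 listed mutation sites (8.50%) were covered as deeply.

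LUC7L3, related to a yeast protein of the U1 particle that recognises the 5′ splice site, held the one locus of 5 sites. From 5′ to 3′ its truncation sites had 20, 10, 11, 5, 6 and 6 tags, and the first 5 lay within 894 nt at chr17:48823131-48824024. The first 3 shared 1 tag cluster with 0.70 expected tags per position and were 27 and 36 nt apart. The first of them (chr17:48823131-48823151, 20 tags, ratio 28.6) also stood at the lowest P of 1e-100. The sixth site lay 5550 nt farther 3′, at 98.7% of the interval's length. No mutation site was listed in LUC7L3, although the cluster with 3 truncation sites was among the deepest of the members' clusters with a listed truncation site.

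BCLAF1 and THRAP3 encode related RS-rich proteins that bind each other and act in RNA processing and export, and both genes had few sites. BCLAF1 had 1 truncation site, with 9 tags against 0.32 expected, at chr6:136582473-136582493. THRAP3 had truncation sites with 4 and 4 tags, the smallest number in the list, at chr1:36755060-36755080 and chr1:36759746-36759766, against 0.06 and 0.08 expected. Its mutation site (chr1:36753548-36753568) rested on 2 mutated of 5 tags (40.0%, 5.27 to 85.3%) and was 1512 nt from the nearest truncation site. The 3 THRAP3 sites were each alone in their locus.

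Truncation sites made up 89.5% of the 38 sites (exact binomial 95% interval 75.2 to 97.1%), against 70.0% of all listed sites and 69.9% (68.8 to 71.0%) of the list outside these genes. The difference was not tested, because sites of 1 gene share their RNA and are not replicates. Mutation sites occurred in 4 genes (SRRM2, SON, PNISR and THRAP3), 1 in each. Of these 4, 3 lay 12 to 64 nt 3′ of a truncation site, a range set by these sites themselves. How many of all listed mutation sites lie so close was not counted, so this is not read as a trait of these genes. Of the 4, 2 were covered by 10 or more tags, as were 19.1% of all listed mutation sites. Their median coverage was 15.5 tags, against 5 in the rest of the list. The median mutated share was 30.1%, against 50%, and 4 sites are few for either comparison.

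Heights of truncation sites in the 8 genes lay close to those of the list. The 34 truncation sites had a median of 6.5 truncated tags (quartiles 5 and 9, range 4 to 20), against 6 (5 and 9, range 4 to 42) in the rest of the list. Expected tags per position had a median of 0.22 (quartiles 0.12 and 0.348), against 0.19 (0.12 and 0.31), and it was above the list's median at 20 of 34 sites (58.8%, 40.7 to 75.4%), against 49.4% of all listed truncation sites. Observed tags were a median of 31.1 times the expected ones, against 35.3 times. The lowest listed P was reached by 2 of 34 sites, against 2.96% of all listed truncation sites. Sites with 10 or more tags numbered 6 of 34 (17.6%, 6.76 to 34.5%), against 21.2% of all listed truncation sites, so the share was near the background. All 6 were in ACIN1, PNISR and LUC7L3.

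By their highest site, 3 genes had a truncation site of 10 or more tags and 5 had none. This division was made after the values were seen and is given as a description. ACIN1 (64 tags), LUC7L3 (58) and PNISR (51) together held 173 of 264 truncated tags (65.5%) on 18 of 34 sites, with 5 to 20 tags per site. SRRM2 (36), SON (25), SRRM1 (13), BCLAF1 (9) and THRAP3 (8) held 91 on 16 sites, with 4 to 9 tags. The ranges overlapped. The expected number per position differed in the same direction, with a median of 0.33 in the 3 genes and 0.12 in the 5, and the ratio of observed to expected tags in the opposite one, 25.0 and 43.1. Every listed truncation site has at least 4 tags, so sites in thin clusters are listed only at high ratios; the part of tag depth in these heights was not tested. SRRM2 thus had the most sites of the 8 genes but none with 10 or more tags.

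**Figure D4:**
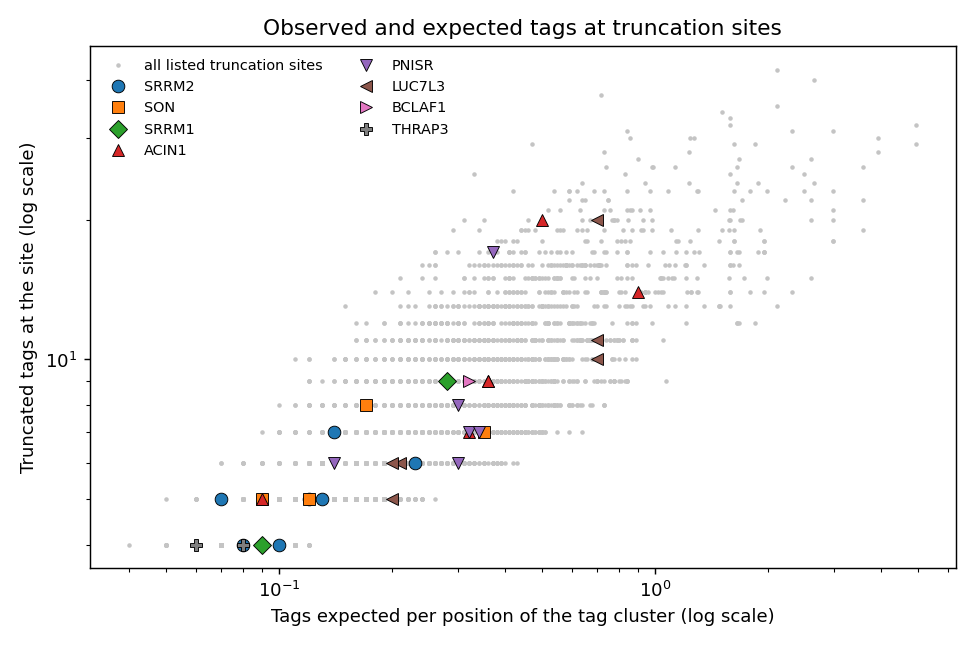
Truncated tags at each site against the tags expected per position of its cluster, both on log scales, for all 4731 listed truncation sites (grey) and the 34 of the 8 genes (coloured by gene). Member sites lie inside the grey cloud, with ACIN1, PNISR and LUC7L3 reaching 17 to 20 tags and SRRM2, SON, SRRM1, BCLAF1 and THRAP3 at 9 or fewer.

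The numbers of the tag clusters, which rise along each strand, gave a count of how many clusters had been numbered between a gene's first and last truncation site. SRRM2 had 102 numbered clusters in that span, or 86.7 per 10 kb, of which 7 (6.86%) held a truncation site. The other values were 74 clusters in ACIN1 (34.8 per 10 kb, 5 with a site), 66 in SON (27.8, 4 with a site), 24 in LUC7L3 (37.4, 4 with a site) and 19 in PNISR (26.1, 5 with a site). The share of clusters with a site was thus 26.3% in PNISR, 16.7% in LUC7L3, 6.86% in SRRM2, 6.76% in ACIN1 and 6.06% in SON. Both end clusters of a span hold a site by its definition, which raises the share where few clusters are numbered. The shares are therefore not compared between genes. SRRM1 had 23 clusters and THRAP3 10, and in each only the 2 end clusters held a site, a share of 8.70% and 20%. By the cluster numbers the stretches of SRRM2 and SON without listed sites were not free of tags. The numbers rose from 2385 to 2462 across the one in SRRM2 and from 891 to 949 across the one in SON.

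Along the intervals, 29 of the 38 sites lay beyond 50% of the length from the 5′ edge. All sites of PNISR (7), LUC7L3 (6), THRAP3 (3) and BCLAF1 (1) did, as did 5 of 6 in ACIN1, 4 of 8 in SRRM2, 2 of 5 in SON and 1 of 2 in SRRM1. The first site stood at 62.7% of the interval in PNISR, 78.5% in THRAP3, 79.3% in LUC7L3 and 86.4% in BCLAF1, and at 19.5% to 40.3% in the other 4. Last sites stood between 86.1% and 98.7% in all 8 genes. Exons were not placed on the intervals, so these positions could not be compared with those of exonic sequence.

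Neighbouring sites were common in these genes. The 38 sites formed 22 loci, of which 14 held 1 site, 7 held 2 to 4 and 1 held 5. Sites alone in their locus were 14 of 38 (36.8%, 21.8 to 54.0%), against 65.4% of all listed sites. Sites in a locus of 5 or more were 5 of 38 (13.2%, 4.41 to 28.1%), against 10.3%, and all 5 were those of LUC7L3. This share was 0% with gaps of up to 500 nt and 68.4% with gaps of up to 10000 nt. Truncation sites that shared a tag cluster with another were 7 of 34 (20.6%, 8.70 to 37.9%), against 13.1%, in LUC7L3 (3), ACIN1 (2) and PNISR (2). The genes were proposed with these sites known, and genes with several sites hold fewer lone ones, so none of these shares is read as a property of speckle protein genes.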

How the data were processed

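Cutadapt and BWA 0.7 are named, with build hg19, per the submitters' processing notes. How duplicate and multiply placed reads were treated, and when the 2 libraries were joined, is not given in the sources used here. In the deposited list each site has a tag count from the authors, which equals the truncated tags (PH) or mutated tags (m) written in the site's name. The other deposited fields in the name, kept on the authors' own scale, are expected tags per position, P and covering tags; their reading follows the naming of the CTK toolkit after which the list is named. Intervals are 21 nt in most rows.

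Computed here with Python 3.11.15, pandas 2.3.3 and scipy 1.17.1 were the assignment of sites to genes by midpoint and strand, loci (gaps of at most 1000 nt), exact Poisson and Clopper-Pearson 95% intervals (counting error only; tags without molecular identifiers are not independent molecules), and motif counts in GENCODE 29 transcripts (GRCh38; letters and lengths only). All 8 genes were described; named sites were each gene's highest truncation site, deepest mutation site and largest locus, with others added after their values were seen. The assignment and joining were tested on simulated data. Members, lists and motifs were chosen with earlier results of these data known. A planned list of other speckle genes and the planned protein stretches were not analysed here, for want of an hg19 annotation and a protein table. No test was made, since the list holds 1 group with its replicates joined. Alternatives tried were the interval edges, placement by the whole site, a tag minimum, merging of close sites, the joining gap, and leaving out SRRM2.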

Additional observations from a re-analysis of the deposited data

How the results depend on the processing

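Of 44 alternative values, 38 stayed within 1.5 times a count, or a median of 4 sites, or inside the 95% interval of another value. That count overstates stability, because some values could not move. Widening the intervals could not add a site, since the nearest outside on the same strand lay at least 45481 nt away. Densities of single genes were 24 of the 44 and had wide Poisson intervals, and 22 of them counted as staying. LUC7L3 counted as staying although its density fell from 1.81 to 0.906 per 10 kb under the tag setting described next. The 38 sites became 19 when only sites with tags above the median of their own kind were kept. Under that setting SRRM2 dropped from 4.17 to 0.521 sites per 10 kb, and THRAP3 from 0.370 to 0, so the first place of SRRM2 in density rests on low sites: PNISR then stood at 1.82 and ACIN1 at 1.34. Loci of 5 or more sites held 13.2% of the member sites, and this share was 0% with gaps up to 500 nt and 68.4% with gaps up to 10000 nt. Without SRRM2 the median coverage of mutation sites moved from 15.5 to 25 tags, over 3 sites. No paired analysis was possible because both replicates are joined in 1 column of counts; for the same reason no replicate could be left out. No truncation site under 4 tags is listed and the tag totals are unknown, so sites missing from a gene say nothing of absent binding.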
